A study of Homo sapiens with 3 samples.

Results

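The genes described here are 52 chromatin modifier and remodeler genes, taken from the clusters of MATR3-bound RNA by gene name. All 52 names were found among the 20007 protein-coding genes of the annotation used (GENCODE release 44). They fall into 23 histone methylation genes, 10 histone acetylation genes, 17 remodeling genes and the 2 cofactors ASXL1 and ASXL2. MATR3 (matrin 3) was immunoprecipitated in 3 biological replicates from untreated, wild-type HEK293, a human cell line that was established from embryonic kidney. The method was PAR-CLIP, in which a photoreactive nucleoside crosslinks RNA to the bound protein and is read as C in place of T at crosslinked positions (T-to-C). All 3 libraries belong to the same group and there is no control, so each comparison was made between genes or between replicates. Clusters show bound RNA, so the identity of the cells could not be checked against marker genes here.

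The deposited clusters numbered 133088, 131679 and 124040 in replicates 1, 2 and 3. Those in protein-coding genes held 1360238, 1242469 and 1269787 reads. The 52 genes had 1809, 1794 and 1800 clusters, with 22832, 21117 and 21733 reads. This was 1.68%, 1.70% and 1.71% of the reads in protein-coding genes, close to equal in the 3 replicates. Every deposited cluster had at least 4 reads, so weaker sites were not seen. Reads can include copies of a molecule, and the chromatin genes had 2.77 ± 0.332 reads per distinct read (SD, n = 3). The p-values given here measure only the spread among these 3 libraries.

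Histone proteins package DNA, and enzymes add or remove methyl and acetyl groups on them. Methyltransferases write and demethylases erase histone methylation, whereas acetyltransferases open chromatin and deacetylases close it. Remodelers use ATP to slide or evict nucleosomes. Many of these proteins act as large complexes whose subunits come from pairs of related genes, called paralogs. MATR3 is a nuclear protein with RNA recognition motifs and zinc fingers. It is known to bind pyrimidine-rich stretches of introns and to influence splicing. AUCUU, read as ATCTT in DNA letters, is a known MATR3 motif.

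The sites found again in each library are shown first, because they are the stretches of these genes with the most repeatable signal. A stretch of at least 10 nt was covered by a cluster of the same strand in all 3 replicates at 35 sites in 21 of the 52 genes (40.4%). Such a site was present in 7.36% of all protein-coding genes and in 10.4% of those in the length range of the 52 genes. Among other genes of that length range with clusters in all 3 replicates the share was 19.5%, and neither cluster number nor reads were matched. The 10 intronic sites with the highest lowest read number are printed 5′ to 3′ in the direction of the RNA. Capitals mark the longest unbroken run of C and T, or the first from the 5′ end where several were equally long.
CHD2, intron 5: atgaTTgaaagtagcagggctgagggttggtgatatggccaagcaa
EHMT2, intron 18: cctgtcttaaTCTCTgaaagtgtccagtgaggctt
EP400, intron 32: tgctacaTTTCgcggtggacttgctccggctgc
SETD5, intron 1: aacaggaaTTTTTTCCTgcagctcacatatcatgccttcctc
CREBBP, intron 2: gtcaCTTgttcgtg
EP400, intron 51, upstream site: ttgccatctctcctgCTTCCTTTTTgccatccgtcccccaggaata
KMT2C, intron 49: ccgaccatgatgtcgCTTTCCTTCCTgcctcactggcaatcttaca
DOT1L, intron 7: gtgCCCacagtggaagctgtgt
EP400, intron 51, downstream site: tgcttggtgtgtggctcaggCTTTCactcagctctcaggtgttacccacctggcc
KDM2B, intron 12: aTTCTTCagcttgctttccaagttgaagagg

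The CHD2 site, at chr15:92934902-92934947 on the plus strand of hg38, lay in clusters of 23, 28 and 45 reads in replicates 1, 2 and 3. It was 32.6% pyrimidine, and its longest C and T run was 2 nt. The KMT2C site, at chr7:152152159-152152204 on the minus strand, lay in clusters of 32, 18 and 16 reads and was the site among the 10 that held ATCTT. Its run of 11 nt was the longest of the 10. These sites span a wide range of pyrimidine content, from the low value in CHD2 to 73.9% at the upstream EP400 site of intron 51.

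The EHMT2 site, at chr6:31886342-31886376 on the minus strand, lay in the leading cluster of that gene in all 3 replicates, with 23, 21 and 28 reads. Those clusters held 41.1%, 29.6% and 60.9% of the EHMT2 reads. No other of the 52 genes had overlapping leading clusters in all 3 replicates. Genes outside the 52 were not searched for this. At the upstream EP400 site, chr12:132071610-132071655 on the plus strand, the clusters had 17, 164 and 27 reads, so replicate 2 was far higher there. The DOT1L site at chr19:2197258-2197279 had 15, 78 and 27 reads, again highest in replicate 2.

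The other printed sites had more even reads. The EP400 site of intron 32, chr12:132042826-132042858 on the plus strand, had 19, 26 and 18 reads. SETD5, at chr3:9400389-9400430 on the plus strand, had 18, 22 and 22 reads. KDM2B, at chr12:121464289-121464319 on the minus strand, had 17, 16 and 15 reads. These 3 sites differed little between libraries. CREBBP, at chr16:3816911-3816924 on the minus strand, had 34, 17 and 19 reads. The downstream EP400 site of intron 51, chr12:132074995-132075049, had 29, 15 and 54 reads. Both of these varied more between the replicates.

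Of the 35 sites, 33 were classed as intronic in all 3 replicates and 2 held ATCTT. Their median length was 30 nt and their median pyrimidine content 64.3%. Remodeling genes held 19 sites in 9 of 17 genes, methylation genes 11 in 8 of 23 and acetylation genes 5 in 4 of 10. ARID1A and EP400 had 4 sites each and ARID1B had 3. A pair of the EP400 sites shared a cluster of 164 reads in replicate 2, so these sites are not independent. The 2 sites of CHD7 had the same 25 reads in replicate 1 and 11 reads in replicate 2, and are not taken as independent either. Members of the list with no such site, 31 of 52, include ASXL1 and ASXL2.

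The first question was how widely and how densely MATR3 reads covered these genes. A cluster was present in all 3 replicates in 51 of the 52 genes, beside 40.8% of all protein-coding genes. The genes are long, with a median span of 134 kb against 45.1 kb for the other 8102 protein-coding genes with clusters in all replicates. Among the 11726 protein-coding genes whose length lay within that of the 52, 53.0% had a cluster in all 3. The exception was SMARCA2, with no cluster in replicate 3. RNA levels were not measured in these libraries, so bound reads cannot be set against the amount of each RNA.

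Read density is given as reads in clusters per kb of gene span, scaled to 1000000 reads in protein-coding clusters of the library. The median of the 52 genes was 2.08, beside 1.65 for the other genes with clusters in all 3 replicates, and 36 of the 52 lay above that level. The share of the 52 genes above the upper quartile of other genes, which was 4.0, was 17.3%, beside the 25% that the quartile sets for those other genes. Against the 6161 other genes in the same length range, whose median was 1.30, 39 of 52 lay above the median and 19 above the upper quartile of 2.93. In total reads the difference was wider, with a median of 303 scaled reads against 67.9 for other genes. CREBBP ranked 32nd, ARID1A 35th, EP400 49th and EHMT1 54th of all protein-coding genes by scaled reads.

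Longer genes held more reads and fewer reads per kb. Spearman's rho between reads and span across the 52 genes was 0.43, 0.39 and 0.32 in replicates 1, 2 and 3. Between density and span it was -0.33, -0.35 and -0.29. The genes are not independent replicates, density has span in its denominator, and the values describe each library only. The order of the genes was much the same between replicates, with rho of 0.895, 0.920 and 0.902 for the 3 pairs of libraries (n = 52 genes).

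**Figure D1:**
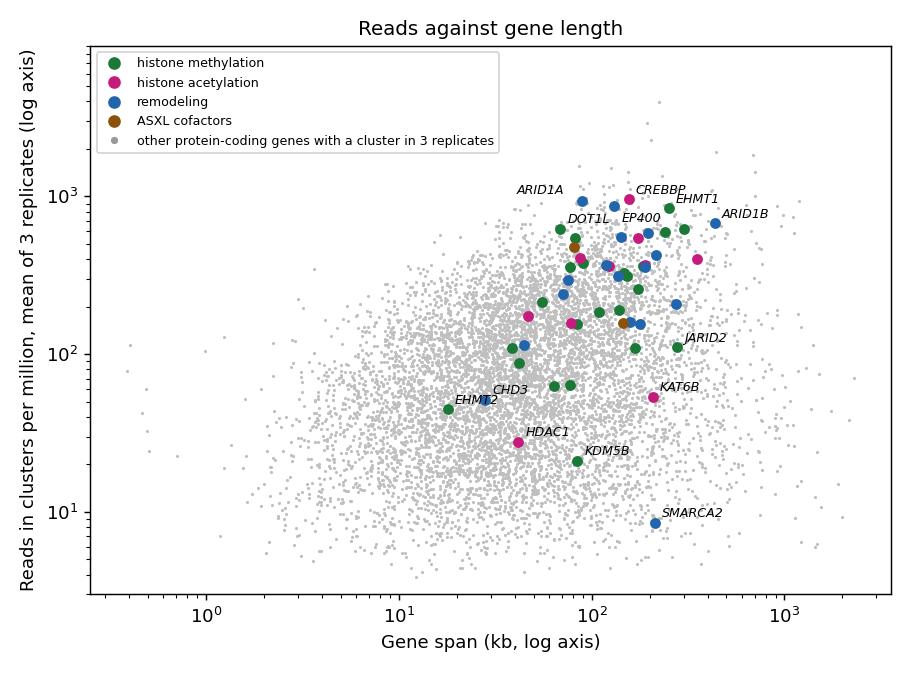
Reads in clusters scaled to 1000000 reads in protein-coding clusters (mean of 3 replicates, log axis) against gene span in kb (log axis) for the 52 chromatin genes, coloured by group, and for 8102 other protein-coding genes in grey. The chromatin genes lie in the longer part of the range, and ARID1A, CREBBP, EP400 and EHMT1 are near the top while SMARCA2 is lowest.

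Among the histone methylation genes, DOT1L and SETD5 had the highest density. DOT1L, a histone H3 methyltransferase without a SET domain (chr19:2163933-2232578), had 594, 1094 and 711 reads in replicates 1, 2 and 3. Its density was 9.12 ± 3.34 (SD, n = 3), with replicate 2 well above the others. SETD5, a SET-domain protein (chr3:9397615-9479240), had 797, 507 and 820 reads and a density of 6.70 ± 1.51 (SD, n = 3). The replicate ranges of DOT1L and SETD5 overlapped.

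EZH2 is the catalytic subunit of polycomb repressive complex 2, which methylates histone H3 at silenced genes. It had 458, 417 and 514 reads and a density of 4.66 ± 0.514 (SD, n = 3). Its partners in the complex were lower in every replicate. SUZ12, a core subunit, had 77, 66 and 101 reads and a density of 0.985 ± 0.224. EED, the subunit that reads the mark, had 141, 80 and 29 reads and a density of 0.820 ± 0.521. JARID2, an accessory subunit, had 179, 116 and 135 reads over a span of 276 kb and a density of 0.40 ± 0.0705. Within this complex the highest partner value, 1.34 for EED in replicate 1, was below the lowest EZH2 value of 4.36.

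Several KMT2 proteins are methyltransferases that mark promoters and enhancers. KMT2A, the gene rearranged in mixed lineage leukemia, had 448, 529 and 476 reads and a density of 4.17 ± 0.534 (SD, n = 3). KMT2C and KMT2D, paralogs of enhancer complexes, had densities of 2.06 ± 0.162 and 2.09 ± 0.820, and KMT2E 1.48 ± 0.457. KMT2A was above all of these in every replicate. EHMT1 and EHMT2, partners in a heterodimer that methylates histone H3 at silent chromatin, had densities of 3.34 ± 0.244 and 2.50 ± 0.609. EHMT1 had 1147, 1115 and 984 reads in 89, 117 and 85 clusters, whereas the much shorter EHMT2, at 17.9 kb, had 56, 71 and 46 reads in 4, 5 and 4 clusters. Reads of the pair thus differed far more than their density. SETDB1, a methyltransferase of repeat silencing, had 2.85 ± 1.07. SETD2, which methylates histone H3 along transcribed genes, had 2.20 ± 0.307. NSD1, another methyltransferase, had 84, 239 and 94 reads and a density of 0.650 ± 0.428, so replicate 2 was far above the others.

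Of the demethylases, KDM4A was highest, with 241, 236 and 351 reads and a density of 3.87 ± 0.975 (SD, n = 3). KDM5B was lowest of all methylation genes, with 18, 25 and 38 reads in 3 clusters per replicate and a density of 0.251 ± 0.0999. KDM6A, the demethylase that opposes EZH2 and is encoded on the X chromosome, had 860, 657 and 776 reads and a density of 2.47 ± 0.228. KDM2A had 206, 243 and 282 reads and a density of 1.37 ± 0.257. These were the highest and the lowest of the remaining demethylases, with KDM2B, KDM3B, KDM4B and KDM5A between them. KDM2B, for which the site in intron 12 is printed above, had 393, 554 and 261 reads, so replicates 2 and 3 lay apart. Replicate ranges of these middle genes overlapped their neighbours in the order.

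The acetyltransferases CREBBP and EP300, related coactivators that acetylate histones at enhancers, led the acetylation genes. CREBBP (chr16:3725054-3880713) had 1255, 1093 and 1366 reads and a density of 6.16 ± 0.662 (SD, n = 3). EP300 (chr22:41092592-41180077) had 486, 294 and 791 reads and a density of 4.64 ± 2.26. Replicate 3 of EP300 was higher than CREBBP in the same library, 7.12 against 6.91, while replicates 1 and 2 were lower. TRRAP, a scaffold of acetyltransferase complexes, had 731, 807 and 564 reads and a density of 3.14 ± 0.595.

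KAT6A and KAT6B are paralogous acetyltransferases. KAT6A had 468, 345 and 590 reads and a density of 2.96 ± 0.774 (SD, n = 3), whereas KAT6B had 155, 18 and 41 reads and a density of 0.258 ± 0.255. The KAT6B value rested largely on replicate 1, which held 17 of its 27 clusters. The deacetylase HDAC5 had 184, 211 and 279 reads and a density of 3.73 ± 0.904. HDAC1 had 42, 36 and 30 reads and a density of 0.670 ± 0.0905. HDAC2 had 2.01 ± 0.256, HDAC4 1.13 ± 0.0176, and NCOR1, a corepressor that recruits deacetylases, 1.94 ± 0.367. Thus writers and erasers of acetylation both spread over a wide range of density.

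ARID1A had the highest density of the 52 genes. It is a subunit of the BAF (SWI/SNF) remodeling complex (chr1:26693236-26782104) and had 1120, 1025 and 1454 reads in 68, 62 and 72 clusters. Its density was 10.5 ± 2.08 (SD, n = 3). EP400, the ATPase of a complex that also contains an acetyltransferase (chr12:131949942-132080460), had 1131, 1233 and 999 reads and a density of 6.67 ± 0.829. Every ARID1A value was above every EP400 value.

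Other BAF genes were lower. ARID1B, the paralog of ARID1A and at 435 kb the longest of the 52 genes, had 879, 924 and 813 reads and a density of 1.56 ± 0.134 (SD, n = 3). Its reads were close to those of ARID1A in replicate 2, while its density was lower in every replicate. SMARCA4, an ATPase of that complex, had 428, 377 and 605 reads and a density of 3.08 ± 0.817 (SD, n = 3), and the core subunit SMARCC1 had 2.97 ± 0.331. ARID2, a subunit of the related PBAF complex, had 296, 175 and 135 reads and a density of 0.869 ± 0.319. The alternative ATPase SMARCA2 had 15 reads in 1 cluster in replicate 1, 18 reads in 3 clusters in replicate 2 and no cluster in replicate 3. It was the lowest of the 52 genes, and no fold is given against a library in which it has no cluster.

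The CHD family are helicase remodelers with chromodomains. CHD1 had 310, 464 and 354 reads and a density of 3.91 ± 0.985 (SD, n = 3). CHD2 had 699, 681 and 761 reads and a density of 3.91 ± 0.303. CHD8 had 339, 329 and 263 reads and a density of 3.39 ± 0.421. The values of CHD1, CHD2 and CHD8 were close beside their spread. CHD9 was lowest of the family, with 304, 274 and 224 reads over 274 kb and a density of 0.754 ± 0.0962. CHD4, an ATPase of the NuRD complex, had 234, 107 and 110 reads, so replicate 1 was far above the others. CHD3, also of NuRD, had 52, 86 and 59 reads over 28.0 kb and a density of 1.83 ± 0.574. CHD6 had 762, 447 and 452 reads and a density of 1.97 ± 0.540, and CHD7, the gene of CHARGE syndrome, 435, 428 and 525 reads and 1.90 ± 0.256. These 4 CHD genes had overlapping ranges. INO80, the ATPase of the complex of that name, had 2.29 ± 0.410, and BPTF, a subunit of the NURF remodeler, 1.0 ± 0.200.

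**Figure D2:**
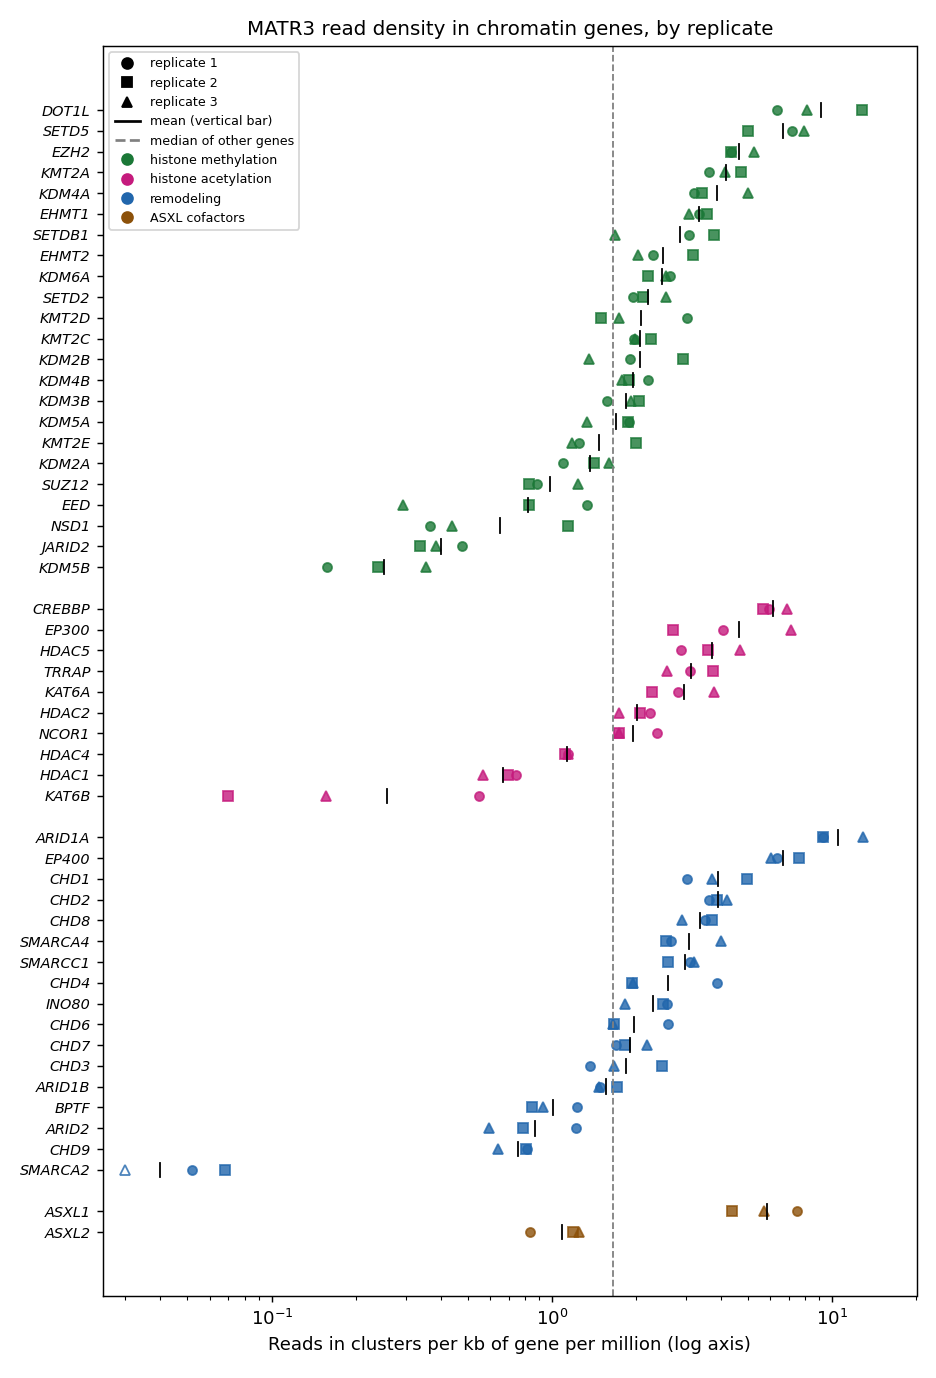
Read density of each of the 52 genes in replicates 1, 2 and 3 (scaled reads in clusters per kb of gene, log axis), ordered within groups by the mean (vertical bar). The dashed line is the median of other protein-coding genes, 1.65, and the open triangle at the left edge stands for SMARCA2 in replicate 3, which has no cluster. Each group spans a wide range, from 0.251 to 9.12 in methylation, from 0.258 to 6.16 in acetylation and from 0.0399 to 10.5 in remodeling genes.

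ASXL1 and ASXL2 encode cofactors of a histone deubiquitinase and were left out of the comparison of groups. ASXL1 had 828, 440 and 589 reads and a density of 5.87 ± 1.58 (SD, n = 3). ASXL2 had 164, 213 and 229 reads and a density of 1.09 ± 0.223. The ranges of the 2 genes did not overlap.

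The groups were then compared with reads and spans pooled over the genes of each. Density was 2.25 ± 0.146 for methylation, 2.37 ± 0.210 for acetylation and 2.34 ± 0.0141 for remodeling genes (SD, n = 3). The log2 ratio of methylation over acetylation genes was -0.15, 0.16 and -0.24 in replicates 1, 2 and 3. That of methylation over remodeling genes was -0.12, 0.054 and -0.11, and that of acetylation over remodeling genes 0.026, -0.11 and 0.13. Each ratio took both signs over the replicates. Exact sign-flip tests, two-sided, gave p = 0.75, 0.5 and 0.75, each 0.75 after Benjamini-Hochberg adjustment over 3 tests. With 3 replicates the smallest p-value this test can give is 0.25. No difference in pooled density between the groups was larger than the spread between replicates. With the median over the genes of each group in place of the pooled value, the mean log2 ratio was -0.24 ± 0.19 for methylation over acetylation and -0.25 ± 0.13 for methylation over remodeling genes (SD, n = 3). Both were below 0 in every replicate, and the exact test gave its smallest p of 0.25 for each.

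The genes within a group differed far more than the groups did. Mean density ran from 0.251 to 9.12 among methylation, from 0.258 to 6.16 among acetylation and from 0.0399 to 10.5 among remodeling genes. Among the 51 genes with clusters in all replicates the highest was 41.7 times the lowest. The number of genes above the median of other genes was 16 of 23, 7 of 10 and 12 of 17 in the same order. Cluster number per 100 kb was 23.9 ± 0.970, 24.7 ± 1.91 and 25.1 ± 0.956 (SD, n = 3), again close between groups.

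Paralog pairs show how far related genes differ in the same libraries. Of 14 pairs, 9 had replicate ranges of density that did not overlap (64.3%), beside 69.9% of all pairs of protein-coding genes with clusters in all replicates. The 9 include SMARCA4 and SMARCA2, though SMARCA2 had no cluster in replicate 3 and lies outside that background. The share for paralogs was near the background. The mean for KAT6A was 11.5 times that for KAT6B, KDM5A 6.75 times KDM5B and ARID1A 6.73 times ARID1B. ASXL1 was 5.40 times ASXL2, CHD8 4.49 times CHD9 and HDAC5 3.30 times HDAC4. HDAC2 was 3.0 times HDAC1 and KDM4A 1.98 times KDM4B. The ninth pair was SMARCA4 over SMARCA2. Density has span in its denominator, and the order by reads can differ. HDAC4 had 549, 487 and 510 reads over 353 kb, against 184, 211 and 279 over 47.0 kb in HDAC5. KDM4B had 553, 431 and 415 reads over 184 kb, against 241, 236 and 351 over 55.4 kb in KDM4A. Both pairs had the opposite order by reads in every replicate. In the other pairs with separate ranges the denser gene also had more reads in each replicate.

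The remaining 5 pairs overlapped. EHMT1 was above EHMT2 in all 3 replicates, with a mean log2 ratio of 0.44 ± 0.24 (SD, n = 3), though its lowest value was below the highest of EHMT2. CREBBP and EP300 had a log2 ratio of 0.52 ± 0.55, KDM2A over KDM2B -0.54 ± 0.69, KMT2C over KMT2D 0.051 ± 0.62 and CHD3 over CHD4 -0.46 ± 0.95. Those 4 pairs changed order between replicates. For the 10 pairs with a constant order the two-sided exact sign-flip test gave its smallest p of 0.25, or 0.35 after Benjamini-Hochberg adjustment over 14 tests. For the other 4 the adjusted p from the exact test was 0.583 to 1.

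**Figure D3:**
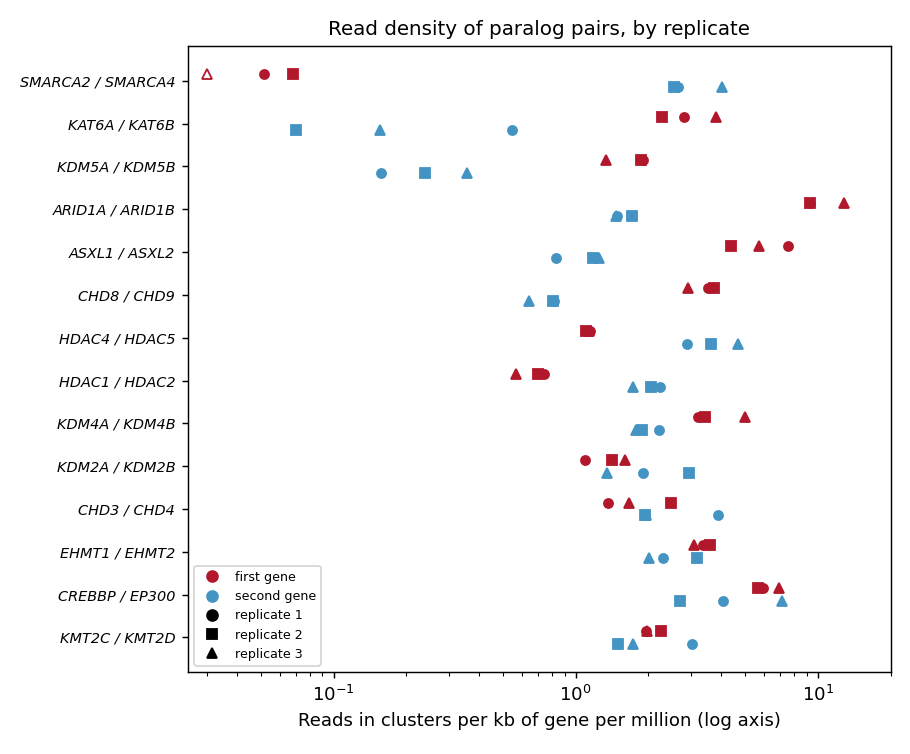
Read density of the genes of 14 paralog pairs in replicates 1, 2 and 3 (scaled reads in clusters per kb of gene, log axis), red for the first and blue for the second gene named. The symbols of 9 pairs lie fully apart, among them KAT6A and KAT6B, and the open triangle at the left edge is SMARCA2 in replicate 3, with no cluster.

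The next comparison was of the annotation class of the clusters. In the 52 genes 94.4%, 94.2% and 94.4% of clusters in replicates 1, 2 and 3 were classed as intronic by the deposited annotation. In other protein-coding genes the values were 87.9%, 87.2% and 86.9%. The difference was 7.02 ± 0.455 percentage points (SD, n = 3), positive in each of the 3 replicates (two-sided exact sign-flip test, p = 0.25, 0.417 after adjustment over 5 tests). The intronic share was 89.7% ± 0.241 in other genes of the same length range, and the difference from them was 4.64 ± 0.228 points. The difference was thus smaller beside genes within that length range, with the same direction in each replicate. The range ran from 17.9 to 435 kb, and lengths were not matched within it.

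Clusters in 3′ UTRs were a smaller share in the chromatin genes in each replicate. They made up 2.16%, 2.45% and 2.67% of clusters, beside 5.96%, 5.91% and 6.69% in other genes. The difference was -3.76 ± 0.286 points (SD, n = 3), with the smallest p this exact test can give (p = 0.25, 0.417 after adjustment). Against other genes of the same length range the difference was -2.69 ± 0.244 points. These clusters were concentrated in a few genes. KDM2A, a demethylase, had 20 of its 53 pooled clusters in the 3′ UTR, NSD1 had 19 of 36 and KMT2A 13 of 108. Together these were 52 of the 131 found, while 26 of the 52 genes had none. How many other genes lack such a cluster was not counted, so this spread was not compared with theirs.

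In KDM2A the 3′ UTR clusters of replicate 1 lay between positions 67255319 and 67257323 of chromosome 11. They held 72.8%, 57.2% and 47.9% of the reads of that gene in replicates 1, 2 and 3. In NSD1 the same share was 41.7%, 61.9% and 62.8%. In both genes the 3′ UTR thus held a large part of the reads in each library. KMT2D had 43.6%, 7.69% and 30.4%, which varied widely, and KMT2A 21.9%, 9.64% and 11.3%.

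By group the 3′ UTR share was 3.54% ± 0.408 in methylation, 1.74% ± 1.04 in acetylation and 1.43% ± 0.254 in remodeling genes (SD, n = 3). Methylation genes were higher than remodeling genes in every replicate. Without KDM2A and NSD1 the methylation share was 1.75% ± 0.370, close to that of the acetylation genes. These 2 genes were left out after seeing the data, and the other groups were kept whole. SMARCC1 and CHD2, with 10 pooled 3′ UTR clusters each, thus stayed among the remodeling genes. The values therefore do not settle how far the difference rested on KDM2A and NSD1. The intronic share was 92.8% ± 1.28, 94.6% ± 1.91 and 96.1% ± 0.854 in methylation, acetylation and remodeling genes. Coding sequence held 1.97% ± 0.779, 1.08% ± 0.760 and 1.52% ± 0.715 of clusters, with overlapping ranges. These differences between groups were not tested. In 8 of the 52 genes every cluster was intronic, EHMT1 with 291 pooled clusters being the gene with the most. Other protein-coding genes were not counted in this way.

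**Figure D4:**
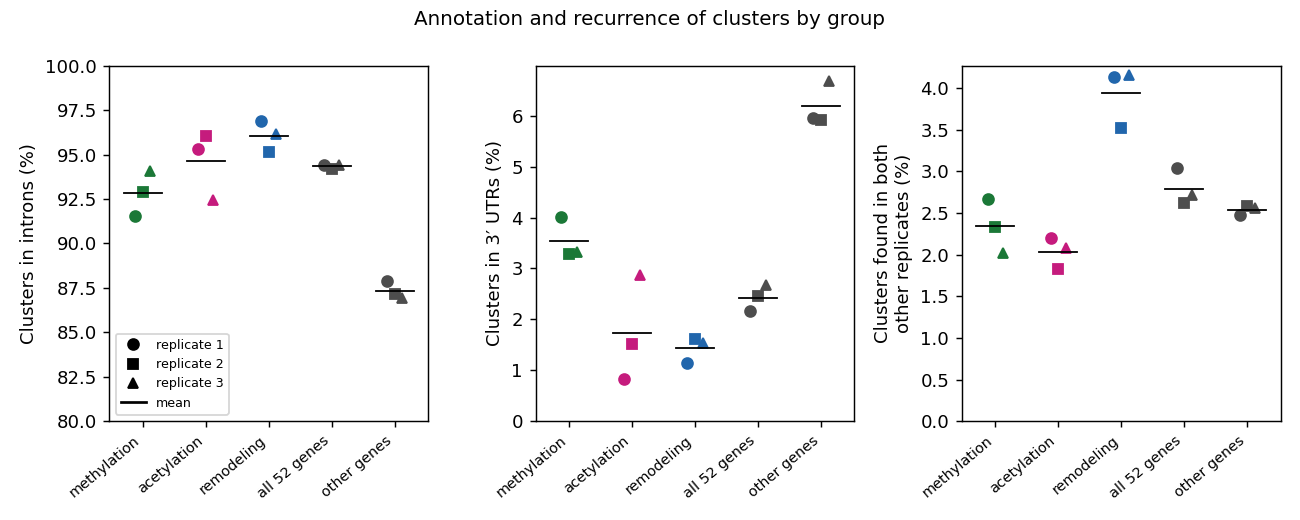
Share of clusters in introns (left, axis from 80% to 100%), in 3′ UTRs (middle) and found in both other replicates (right) for the 3 groups, all 52 genes and other protein-coding genes, with replicates as symbols and their mean as a line. Other genes lie below every group in introns and above every group in 3′ UTRs, and remodeling genes are highest in the right panel.

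The clusters were compared between replicates to ask how often the same site was found. A cluster counted as found again when it overlapped a cluster of the same strand in another replicate by at least 1 nt. Of the 5403 pooled clusters in the 52 genes, 1230 were found in at least 1 other replicate (22.8%), beside 21.7% in other protein-coding genes. By replicate the share was 21.9%, 23.1% and 23.3%, against 21.6%, 21.2% and 22.5%. The difference was 1.02 ± 0.785 points (SD, n = 3), positive in each of the 3 replicates (p = 0.25 by the same exact test, 0.417 after adjustment). Against other genes of the same length range the difference was 1.12 ± 0.744 points. Without replicate 2 it was 0.244 points. With clusters of at least 3 distinct reads it was -0.196, so its direction did not hold in that last setting. The chromatin genes as a whole were thus near the background in this measure.

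Clusters found in both other replicates were few, 151 of the 5403. Their share was 2.79% ± 0.219 in the 52 genes and 2.54% ± 0.0547 in other genes (SD, n = 3). By group it was 3.94% ± 0.362 in remodeling, 2.34% ± 0.327 in methylation and 2.03% ± 0.192 in acetylation genes. All 3 remodeling values were above all values of the other 2 groups, a difference that was not tested. ARID1A alone held 22 of these clusters and EP400 14, followed by ARID1B and the acetylation gene CREBBP with 10 each. Without ARID1A the remodeling share was 3.17% ± 0.657, and its lowest replicate, at 2.42%, was within the range of methylation genes.

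In ARID1A the share of clusters found in both other replicates was 8.82%, 14.5% and 9.72% in replicates 1, 2 and 3. The clusters of replicate 1 lay between positions 26708024 and 26752986 of chromosome 1, within a gene that spans 88.9 kb. Among the 52 genes 49 had a cluster found again in some replicate, and KAT6B, KDM5B and SMARCA2 had none. KAT6B, KDM5B and SMARCA2 were also the 3 genes with the lowest density. The count of 49 was not taken over other genes, so it is not read as a trait of the list. JARID2, with 57 pooled clusters, had 2 found again, and EED had 2 of 26.

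The largest cluster of a gene in each replicate is called its leading cluster. In 8 of the 52 genes the leading clusters of at least 1 pair of replicates overlapped each other. That count was not taken over other genes, so whether it is high or low is not known. Any cluster of another replicate overlapped 67 of the 155 leading clusters (43.2%). This was the case for 28.9% of the leading clusters of other protein-coding genes, and for 33.1% in other genes of the same length range with clusters in all replicates. These shares were not tested, and neither reads nor cluster number were matched. The 52 genes had a median of 29.7 clusters and 303 scaled reads. Other genes with clusters in all replicates had 7.67 clusters and 67.9 scaled reads. The median leading cluster held 11.5% of the reads of its gene, and 138 of the 155 leading clusters were intronic. In KDM3B, a demethylase, the leading cluster of replicate 2 held 105 reads, 49.1% of the gene in that library, against 31 and 25 reads in replicates 1 and 3. KDM2A and KDM5B had a leading cluster in the 3′ UTR in every replicate.

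The crosslink signal and the sequence of the clusters were compared last. In intronic clusters, reads with T-to-C made up 87.6%, 86.1% and 88.5% of reads in the 52 genes in replicates 1, 2 and 3, against 87.6%, 86.8% and 88.0% in other genes. The difference was -0.0841 ± 0.618 points (SD, n = 3), with both signs among the replicates (exact sign-flip p = 1). Deposited clusters had to contain T-to-C reads, so a high share follows in part from the files. ATCTT, searched on the cluster's own strand only, was in the central 20 nt of 3.81%, 4.26% and 4.59% of intronic clusters, beside 4.2% of those in other genes over the pooled replicates. By replicate the difference was 0.0112 ± 0.431 points (exact p = 1), so the motif was as frequent as its background within the spread.

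Base composition was close as well. In the central 20 nt of intronic clusters T made up 33.9% ± 1.11 in the chromatin genes and 33.3% ± 1.01 in other genes (SD, n = 3). The pyrimidine share was 58.7% ± 1.10 against 58.8% ± 1.04, and the GC share 46.1% ± 0.737 against 46.6% ± 0.789. The ATCTT share was 4.32% ± 0.311 in methylation, 3.93% ± 0.415 in acetylation and 4.37% ± 0.645 in remodeling genes. None of these values stood apart from the others beyond the replicate spread.

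A further 88 chromatin genes outside the 52 were set beside them. They comprised 31 methylation, 22 acetylation, 29 remodeling and 6 other genes, and 78 of the 88 had a cluster in all 3 replicates, beside the 40.8% of protein-coding genes given above. MEN1, HDAC10 and CHD5 had no cluster in any replicate. The median density of the 88 was 2.41, with a median span of 50.8 kb, and 50 of 88 lay above the median of other genes. By role, 27 of 31 methylation, 19 of 22 acetylation, 27 of 29 remodeling and 5 of 6 other genes had clusters in all replicates. Their median densities were 1.61, 1.74, 2.80 and 3.56 in that order, with genes lacking clusters counted at 0. The bromodomain genes BRD9, with 992, 1033 and 1136 reads and a density of 19.3 ± 1.96 (SD, n = 3), and BRD1, with 1364, 1036 and 1113 reads and 16.6 ± 1.61, were the highest. Both exceeded ARID1A, the densest of the 52, in every replicate. BAP1, the deubiquitinase partner of ASXL1, had 131, 242 and 155 reads and a density of 15.3 ± 5.67.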

How the data were processed

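For every replicate the authors deposited a cluster table. It holds, per the file headers, raw whole counts of all reads and of distinct reads for each cluster, with its T-to-C reads as a fraction between 0 and 1. The build is hg38, per the submitters' processing notes, and the sequences of all 5403 clusters in the 52 genes equalled it. The aligner, cluster caller and annotation release are not given in the sources used here. Deposited clusters had at least 4 reads, 2 conversion locations and 20 nt. Reads carry no molecular identifiers and may include copies.

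Gene names were matched to GENCODE release 44 directly or through RefSeq synonyms, and 81.9%, 82.7% and 83.0% of clusters lay in named protein-coding genes. The longest span per symbol was used. In EP300, 4 clusters lay outside that span and were kept by name. Density divided cluster reads by span in kb and by reads in protein-coding clusters, scaled to 1000000. Shares and densities were compared by sign-flip tests (exact, two-sided) across replicates, with Benjamini-Hochberg adjustment within a family. The overlap search and the density ratio were checked on simulated data. The sign-flip test was checked only on short made-up sets of values, and the adjustment was not checked.

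The genes, groups, further gene lists and paralog pairs were chosen with earlier results of these data known. Any of the 52 genes could be named. Those given in full were the 5 densest methylation and remodeling genes, the 4 densest acetylation genes, the 2 least dense of each group, paralogs and genes lacking a cluster in some replicate. Sites printed were the first 10 by lowest read count among recurrent intronic sites, leaving out chromosome 8. Alternatives were clusters with at least the median reads or 3 distinct reads, distinct reads or cluster number in place of reads, gene medians, intronic clusters, another overlap, cluster lengths of 30 to 50 nt, read weighting, at least 2 clusters per gene, leaving out EP400 and TRRAP, and leaving out each replicate. Leaving out KDM2A and NSD1, leaving out ARID1A, and other genes within the length range of the 52 were added after seeing the data. Python 3.11.15, numpy 2.4.6, pandas 2.3.3 and scipy 1.17.1 were used.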

Additional observations from a re-analysis of the deposited data

How the results depend on the processing

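Of 73 alternative values for 9 results, 15 changed sign, all in differences near 0. The other 58 did not change sign, but not all of them have a direction. They include the counts of genes with clusters in all replicates. They also include a T-to-C difference of 0 by the median over clusters. With clusters of at least 3 distinct reads, the share found in another replicate differed by -0.196 points, that of T-to-C reads by 0.207 and that of ATCTT by -0.0136. With clusters of at least the median reads, T-to-C differed by 0.248 and ATCTT by -0.085. ATCTT weighted by reads differed by -0.201. The log2 density ratio of acetylation over remodeling genes was -0.029 by cluster number, -0.019 by gene medians and -0.0096 in introns. That of methylation over remodeling genes was 0.082 without EP400 and TRRAP. By gene medians methylation over acetylation and over remodeling genes reached -0.24 and -0.25, over 3 times the pooled -0.075 and -0.06, with the same sign. Leaving out each replicate gave ranges of -0.19 to 0.0071 for methylation over acetylation, -0.042 to 0.077 for acetylation over remodeling, -0.365 to 0.247 points for T-to-C and -0.171 to 0.249 for ATCTT. The signs of both log2 ratios turned without replicate 3, and that of T-to-C without replicate 2. That of ATCTT turned without replicate 2 or replicate 3. The cause was not tested. The intronic and 3′ UTR differences kept their direction throughout. Genes with clusters in all replicates numbered 49 to 52.

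The libraries form a single group, so no library could be paired with one of another condition. The tests used values paired within each replicate. Clusters under 4 reads were not seen, RNA levels were not measured, and 3 replicates limit the exact p to 0.25 or above.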

Other observations

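The place of intronic clusters within the gene was described for the 52 genes and for other protein-coding genes, with no test. When each span was divided into 3 equal parts, the 5′ part held 38.4% ± 1.72 of them, beside 44.4% ± 0.607 in other genes, and the 3′ part held 25.7% ± 1.66 beside 23.4% ± 0.415 (SD, n = 3). The median distance to the nearest exon of the canonical transcript was 2.91 kb ± 0.190, beside 2.56 kb ± 0.158. Clusters within 300 nt of such an exon made up 8.71% ± 0.105 against 10.3% ± 0.410. By group this distance was 2.81 kb ± 0.333 in methylation, 2.53 kb ± 0.416 in acetylation and 3.13 kb ± 0.215 in remodeling genes, and 10.9 kb ± 1.81 in ASXL1 and ASXL2 together. The chromatin genes are longer than the other genes, and the part of gene length in these values was not tested.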
